A study of Mus musculus with 4 samples.

Results

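Neurons hold their axons and dendrites in shape with microtubules and with neurofilaments, and 10 genes of these 2 systems were followed in cultured mouse prefrontal cortex (PFC) cells with and without FGF2. The members were taken by name: the microtubule-associated proteins Map2, Mapt, Map1a, Map1b and Dcx, the tubulin Tubb3, the tubulin-binding protein Stmn2, and the neurofilament subunits Nefl, Nefm and Nefh. They are 10 of the 55421 genes in the count files, and all 10 passed the filter on low counts.

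Microtubules are polymers of alpha- and beta-tubulin, and microtubule-associated proteins bind along their wall, bundle them and set how stable they are. Dcx and Map1b are typical of young, migrating and extending neurons, whereas tau (the product of Mapt) accumulates in axons and Map2 in dendrites. Neurofilaments are intermediate filaments of axons, built from a light, a medium and a heavy chain with alpha-internexin as a further partner, and the medium and heavy chains increase as axons mature.

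The cells came from the PFC of wild-type C57BL/6 mice at postnatal day 0, were dissociated, and were grown for 10 days in neurobasal medium with B27, with or without FGF2 at 5 ng/mL. FGF2 is a fibroblast growth factor that acts on neural progenitors and glia. Each group has 2 libraries, replicates 1 and 2, and the cultures were not sorted, so every library mixes all cells of the dish. The labels do not say whether the libraries of a group come from separate cultures. The methods of the study give biological replicates for some human samples and technical replicates for the others, without naming the mouse cultures. Therefore n counts libraries, and a p-value may leave out the variation between cultures.

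The FGF2 libraries held 9166432 and 9907613 counts on genes, and the others 10460236 and 10799886. A floor of 3 counts corresponds to 0.277 to 0.331 counts scaled to a common library total (CPM). Levels below are CPM after TMM scaling, which sets most genes to no change between libraries. All 9 cortical and excitatory neuron markers passed the filter on low counts. Bcl11b, a transcription factor of deep-layer cortical neurons, was at 83.3 and 86.7 CPM with FGF2 and 167 and 161 CPM without (log2 fold change -0.95, edgeR adjusted p = 1.4e-51), and Emx1, a factor of the cortical primordium, was at 2.87 to 5.90 CPM.

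Of the 10 members, 7 were lower with FGF2, 1 was higher and 2 were not called, by the edgeR quasi-likelihood test at a Benjamini-Hochberg adjusted p below 0.05. Among all 17144 genes tested, 19.9% were called lower and 20.7% higher, so 40.5% were called in either direction. The members had a median log2 fold change (FGF2 over no FGF2) of -0.32, beside a median of -0.00 over all tested genes. Summed over the members, 7392 and 7283 CPM with FGF2 stood against 9448 and 9641 CPM without. The members took 0.732% and 0.723% of all counts with FGF2, and 0.949% and 0.966% without. Pan-neuronal genes fell too, by a median of -0.48 on the log2 scale with 15 of 15 called lower. CPM are shares of a library. In such bulk libraries fewer neurons, less RNA per neuron and more RNA from other cells cannot be told apart.

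**Figure D1:**
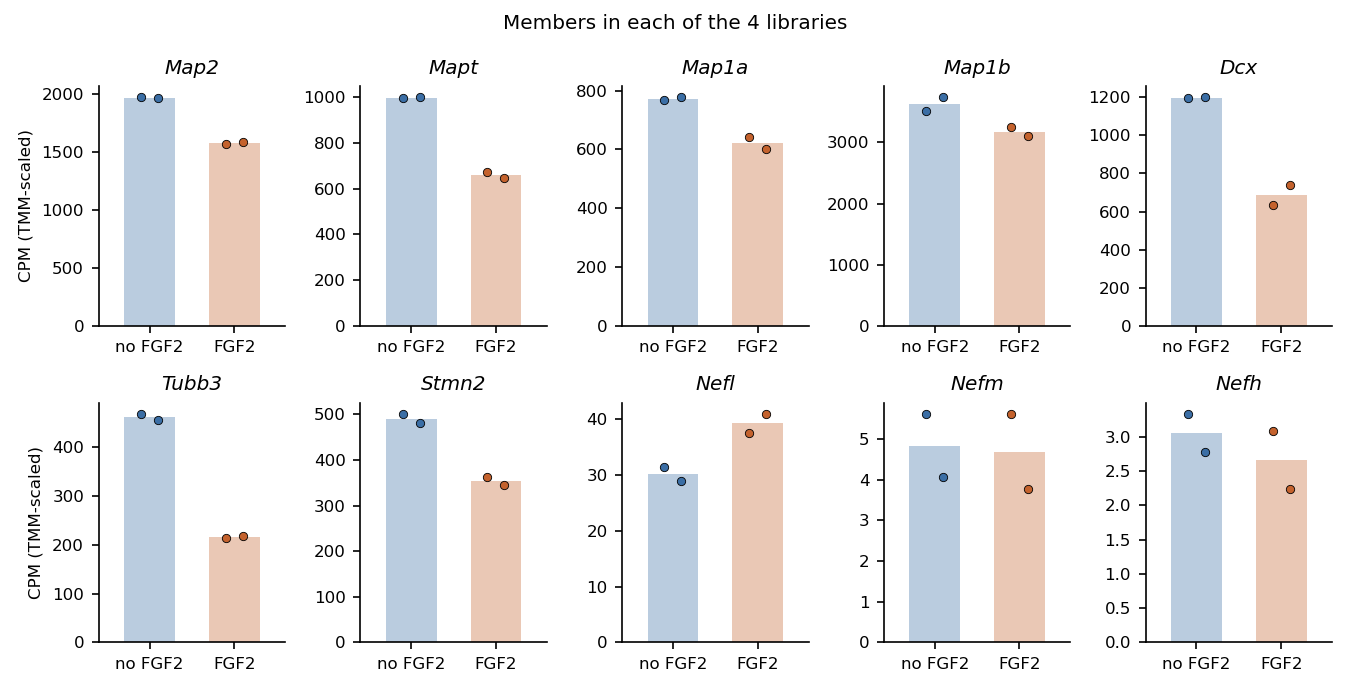
Level of each member in CPM (vertical axes, from 0) in the cultures without FGF2 (blue) and with FGF2 (orange); each point is 1 library and the bar is the mean of 2. Both FGF2 points lie below both no FGF2 points for 7 members, Nefl shows the opposite order, and the points of Nefm and Nefh overlap.

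The promoter stretches of Tubb3 and Dcx, which had the largest falls among the members, and of Map2, which fell less, are shown because the microtubule members moved down together by different amounts. Each is the part of a RefSeq promoter window (250 bases before to 50 after a start, GRCm38.p6) that lies upstream of every annotated exon, written along the strand of the gene. Such windows were at hand for 5 of the 10 members, Map2, Map1a, Tubb3, Map1b and Dcx. Capitals mark the GC box GGGCGG, also read on the other strand as CCGCCC, and the TATA box TATAAA. The stretches are chr8:123411303-123411423 on the plus strand, chrX:143933312-143933469 on the minus strand and chr1:66175079-66175272 on the plus strand.
Tubb3: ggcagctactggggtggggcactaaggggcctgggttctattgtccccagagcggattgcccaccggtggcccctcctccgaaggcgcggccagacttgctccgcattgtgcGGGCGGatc
Dcx: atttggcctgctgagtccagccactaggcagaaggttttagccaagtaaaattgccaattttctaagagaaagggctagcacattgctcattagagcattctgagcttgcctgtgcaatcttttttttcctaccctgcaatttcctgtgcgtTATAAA
Map2: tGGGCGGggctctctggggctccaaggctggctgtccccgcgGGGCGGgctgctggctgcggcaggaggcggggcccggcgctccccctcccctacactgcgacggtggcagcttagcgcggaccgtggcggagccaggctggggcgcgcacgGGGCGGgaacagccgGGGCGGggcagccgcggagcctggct

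The Tubb3 stretch of 121 bases is 67.8% G+C and holds 1 GC box, and the Map2 stretch of 194 bases is 79.4% G+C and holds 4. The Dcx stretch of 158 bases is 42.4% G+C, holds no GC box, and ends in a TATA box. This box lies directly before the gene start of the GENCODE annotation, but 92 bases before the RefSeq start of the window shown. Within whole windows of 300 bases, on either strand and counting overlapping matches, Map2 had 5 GC boxes, Map1a 4, Tubb3 and Map1b 2 each and Dcx 0. At least 1 GC box was present in 35.7% of all 32851 windows and a TATA box in 13.6%, the latter in the windows of Dcx and Map1b among the members. CCAAT, present in 37.4% of windows, was found 1 time each for Map1a, Tubb3 and Dcx. The E-box CAGATG (17.2% of windows) was found for Map1b, and the right part of the RE1 element, GGACAGC (6.56%), for Map2 and Tubb3. The E-box CAGCTG (16.3%), the left part of RE1, TTCAGCACC (0.371%), and the cAMP response element TGACGTCA (1.79%) had no match in the windows of these members. A match describes the letters only.

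Tubb3, the beta-tubulin isotype largely specific to neurons, had the largest change of the 10. Its level was 214 and 218 CPM with FGF2 against 469 and 456 CPM without FGF2. The libraries of a group differed by 2.30% and 2.78%, and the groups lay far apart. The level fell by 53.2% (log2 fold change -1.10, SE 0.042, edgeR adjusted p = 9.4e-144), and 2.24% of all tested genes had a lower fold change.

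Dcx encodes doublecortin, which stabilises microtubules in migrating and newly differentiating neurons. It stood at 636 and 741 CPM with FGF2 and at 1195 and 1199 CPM without. The groups did not overlap, although the FGF2 libraries differed from each other, with a ratio of 1.16 (95% counting interval 1.12 to 1.21) that exceeds sampling noise. The fall was 42.4% (log2 -0.80, SE 0.034, edgeR adjusted p = 3.6e-100).

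Mapt, the gene of tau, was the third of the members by size of change. It gave 674 and 646 CPM with FGF2 against 994 and 998 CPM without, again with no overlap. Its level fell by 33.8% (log2 -0.59, SE 0.034, edgeR adjusted p = 3.9e-65).

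Map2, the dendritic member, and Map1a, which accumulates as neurons mature, fell by similar amounts. Map2 read 1567 and 1585 CPM with FGF2 and 1971 and 1963 CPM without. Map1a read 642 and 600 CPM with FGF2 and 766 and 777 CPM without. Neither gene overlapped between groups, and the spread within a group was below the gap between groups. The log2 fold changes were -0.32 (SE 0.031, edgeR adjusted p = 3.7e-24) for Map2 and -0.31 (SE 0.035, edgeR adjusted p = 1.3e-17) for Map1a, or 19.9% and 19.5% lower.

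Map1b, abundant in extending axons, was the most abundant member in CPM and changed least among those called. It had 3251 and 3100 CPM with FGF2 and 3512 and 3733 CPM without, so the groups were apart by little more than the spread within them. The log2 fold change was -0.19 (SE 0.028, edgeR adjusted p = 2.6e-10). With limma-voom it was also -0.19 but was not called (adjusted p = 0.15), and with DESeq2 the adjusted p was 0.0044.

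Stmn2, a stathmin that binds tubulin dimers and is found in growing and regenerating axons, gave 362 and 345 CPM with FGF2 and 501 and 480 CPM without. The groups did not overlap. The level fell by 27.9% (log2 -0.47, SE 0.039, edgeR adjusted p = 1.4e-31).

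Of the neurofilament subunits, Nefl was called higher, and the changes of Nefm and Nefh were not resolved. Nefl, the light chain that is needed to assemble the filament, was at 37.6 and 41.0 CPM with FGF2 and at 31.5 and 29.0 CPM without (341, 403, 331 and 314 counts). Both FGF2 libraries lay above both libraries without FGF2. Its log2 fold change was 0.38 (SE 0.106, edgeR adjusted p = 0.0014), a rise of 30.0%. The call was lost with DESeq2 (adjusted p = 0.076) and without replicate 2 of the no FGF2 group (edgeR adjusted p = 0.060), while the fold change stayed between 0.31 and 0.43 as each library was left out.

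Nefm and Nefh, the medium and heavy chains whose tails space the filaments, were at the edge of what these depths can resolve. Nefm had 51, 37, 59 and 44 counts in FGF2 replicates 1 and 2 and then the no FGF2 replicates, or 5.62 and 3.76 CPM against 5.62 and 4.06 CPM. Nefh had 28, 22, 35 and 30 counts in the same order, or 3.09 and 2.24 CPM against 3.33 and 2.77 CPM. The groups overlapped for both genes. The log2 fold change of Nefm was -0.05 (95% interval -0.60 to 0.50, edgeR adjusted p = 0.914), and that of Nefh was -0.20 (-0.92 to 0.52, edgeR adjusted p = 0.709). These intervals include a fall as large as that of Map2 as well as a rise as large as that of Nefl.

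Among the members, 7 had both FGF2 libraries below both others and 1 had them above. Among all tested genes, 33.4% and 33.6% were separated in these directions. The libraries of a group differed over the members by more than sampling noise, with a chi-square per degree of freedom of 14.5 with FGF2 and 6.98 without. Over all expressed genes it was 2.28 and 1.76. This measure rises with the number of counts, and the members called lower had 1938 to 40416 counts in a library. The values therefore do not show that the members replicated worse than other genes.

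**Figure D2:**
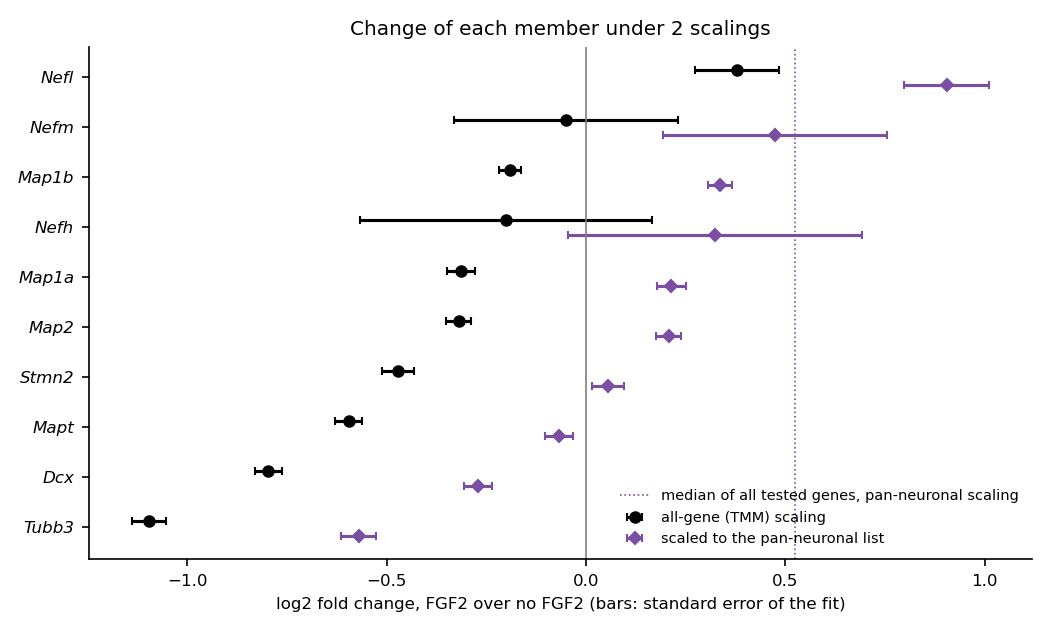
Log2 fold change of each member, FGF2 over no FGF2, with the standard error of the fit as bars, under all-gene TMM scaling (black circles) and after scaling to the 15 pan-neuronal genes (purple diamonds). Under all-gene scaling 7 members fell and Nefl rose; under pan-neuronal scaling Tubb3 and Dcx stayed lower, Map2, Map1a and Map1b flipped to higher, and the dotted line marks the median of all tested genes there, 0.53.

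The direction of the smaller falls depended on what the libraries were scaled to: when the mean log2 level of 15 pan-neuronal genes was set equal across libraries, Map2, Map1a and Map1b became higher with FGF2 whereas Tubb3 and Dcx remained lower. That scaling moved the median of all tested genes up by 0.53 on the log2 scale, so its values are relative to the pan-neuronal list. Tubb3 stood at -0.57 and Dcx at -0.27, both called lower. Mapt at -0.07 (edgeR adjusted p = 0.079) and Stmn2 at 0.056 (adjusted p = 0.211) were not called. Map2 and Map1a were both at 0.21, Map1b was at 0.34 and Nefl at 0.90, each called higher, so 4 members were higher and 2 lower. These calls take the mean of the list as known and leave out the spread among its 15 genes. Under all-gene scaling the 15 genes ranged from -0.90 to -0.30, and Dcx, Map2 and Map1a lay inside that range. Their calls therefore do not set them apart from the single genes of the list. Under this scaling 65.4% of all tested genes were called higher and 2.71% lower. Nefm at 0.48 and Nefh at 0.32 were not called (edgeR adjusted p = 0.122 and 0.438).

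Ratios between the counts of members within a library do not depend on scaling. They are not corrected for gene length, so they compare the groups and not the levels of different genes. The count of Map2 was 2.30 times that of Dcx with FGF2 and 1.64 times without, a log2 difference of 0.48 with no overlap of the libraries. The count ratio of Stmn2 to Tubb3 was 1.64 with FGF2 and 1.06 without, and that of Nefl to Tubb3 was 0.182 and 0.0654. Mapt was lower relative to Map1b with FGF2, with a count ratio of 0.208 against 0.275 without. Each of these 4 ratios, and also Map1a over Map1b and Nefh over Nefl, separated the groups completely, and each had an exact permutation p of 0.333 (two-sided, Benjamini-Hochberg adjusted 0.444 over 8 ratios), the smallest p that 2 libraries against 2 allow. Nefm over Nefl and Nefh over Nefm overlapped between the groups (exact permutation p = 0.667).

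Per kilobase of annotated exon, which allows levels of different genes to be compared, the order of members differed between the groups at the top. Without FGF2, Tubb3 led at 251 and 244 CPM per kb, and Map1b followed at 222 and 236. With FGF2, Map1b led at 205 and 196 CPM per kb and Tubb3 was next at 114 and 117. The 2 leading genes lay close together without FGF2 and well apart with it. Mapt (mean 132 CPM per kb) and Map2 (120) followed without FGF2, then Dcx (94.6) and Stmn2 (87.6), with Map1a at 63.4. With FGF2 the order below Tubb3 was Map2 (95.8), Mapt (87.6), Stmn2 (63.2), Dcx (54.4) and Map1a (51.1). In the FGF2 group the ranges of Dcx and Map1a overlapped, at 50.3 to 58.6 and 49.4 to 52.8 CPM per kb. No other neighbours among these 7 genes overlapped within a group.

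The neurofilament subunits were the lowest members in both groups. Nefl had a mean of 8.95 CPM per kb without FGF2 and 11.6 with FGF2, Nefm 0.837 and 0.811, and Nefh 0.764 and 0.666. The libraries of Nefm and Nefh overlapped in each group, and those of Nefl lay above them. Of the summed neurofilament signal per kb, the light chain made up 84.9% ± 1.57 without FGF2 and 88.7% ± 3.17 with FGF2 (SD, n = 2). The order above Nefl depends on the length used. With the longest transcript in place of all exons, Map2 was first without FGF2 (314 CPM per kb) and second to Map1b with FGF2 (252). Tubb3 then ranked 3 without FGF2 (247) and 4 with FGF2 (116).

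**Figure D3:**
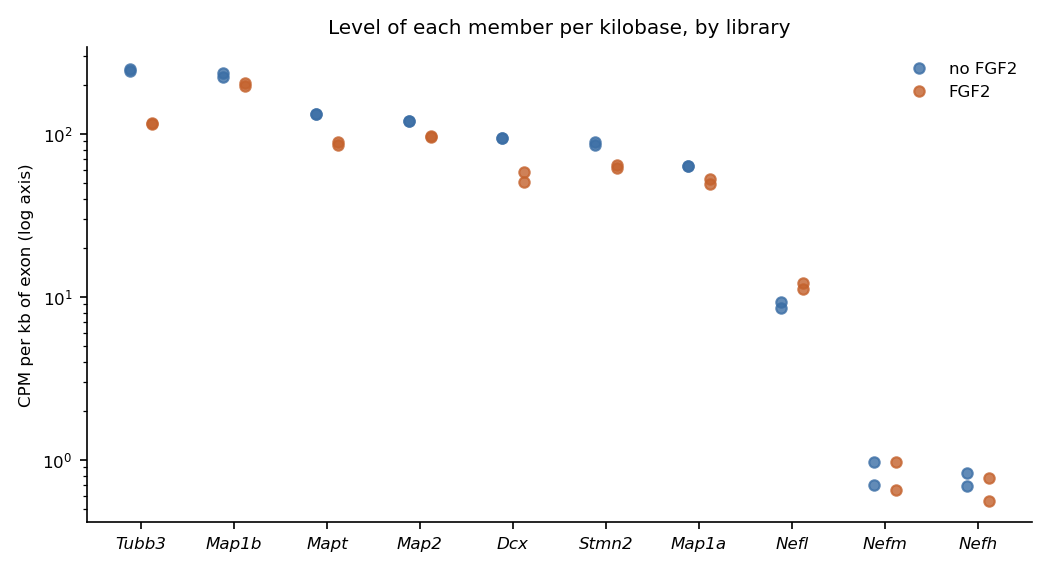
Level of each member in CPM per kb of annotated exon (log axis) in each library without FGF2 (blue) and with FGF2 (orange), ordered by the mean without FGF2. Tubb3 and Map1b lead, the 3 neurofilament subunits stand last, and Tubb3 shows the widest gap between groups.

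Nefl and Nefm lie on opposite strands of chromosome 14, and in mm10 Nefl (chr14:68083863-68089095) lies within the annotated span of Nefm (chr14:68082590-68124846). In GENCODE M21 a transcript of Nefm covers 1108 exonic bases of Nefl, 32.8% of the exonic length of Nefl and 19.2% of that of Nefm. Map1a likewise shares 272 exonic bases (2.24%) with Ppip5k1 on the other strand, and Map2 124 (0.754%) with Gm10558. Counts above 0 were listed for 1 of 397 genes whose exons lay almost wholly within a same-strand neighbour. The same held for 80 of 258 genes whose exons lay almost wholly within a neighbour on the other strand. Only neighbours with counts of their own were used, and genes overlapped from both strands were left out. The counting therefore kept strands apart.

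Tubulins other than Tubb3 were mostly lower as well, with 10 of 13 called lower and 1 higher (median log2 fold change -0.39). Tubb4a, an isotype of mature neurons and oligodendrocytes, was the exception, at 397 and 379 CPM with FGF2 against 200 and 218 without (log2 0.89, SE 0.044, edgeR adjusted p = 8.0e-90). Among the others, Tubb6 (-0.81), Tubg2 (-0.76), Tubb4b (-0.73) and Tubb2a (-0.58) fell most, followed by Tuba4a (-0.47), Tubb5 (-0.43), Tubb2b (-0.39), Tuba1c (-0.34), Tuba1b (-0.33) and Tuba1a (-0.13). Tuba8 (0.58, edgeR adjusted p = 0.36) and Tubg1 (-0.06, adjusted p = 0.75) were not called. Under pan-neuronal scaling the split turned to 7 of 13 higher and 1 lower, beside 65.4% and 2.71% of all tested genes. Counts of Tuba1a, Tuba1b and Tuba1c, of Tubb2a and Tubb2b, of Tubb4b and of Tubg2 are uncertain, since each shares stretches of at least 96% identity with another tubulin gene or pseudogene.

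Within beta-tubulin mRNA, taken as shares of the summed signal per kb in each library and therefore free of scaling, the makeup changed. Tubb3 made up 18.7% and 18.3% without FGF2 and 11.4% and 11.7% with FGF2. Tubb4a made up 6.70% and 7.35% without and 17.8% and 17.1% with FGF2. Of the other large components, Tubb2b (25.4% and 26.0% on average without and with FGF2) and Tubb5 (19.9% and 19.7%) moved little. A steady share is not a steady level, since the shares of a library are tied to each other. In CPM both genes fell (log2 fold changes -0.39 and -0.43). Tubb2a (18.7% and 16.8%) and Tubb4b (10.2% and 8.23%) had smaller shares with FGF2, by more than the spread within a group. Shares that involve Tubb2a, Tubb2b and Tubb4b carry the uncertainty of their counts.

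**Figure D4:**
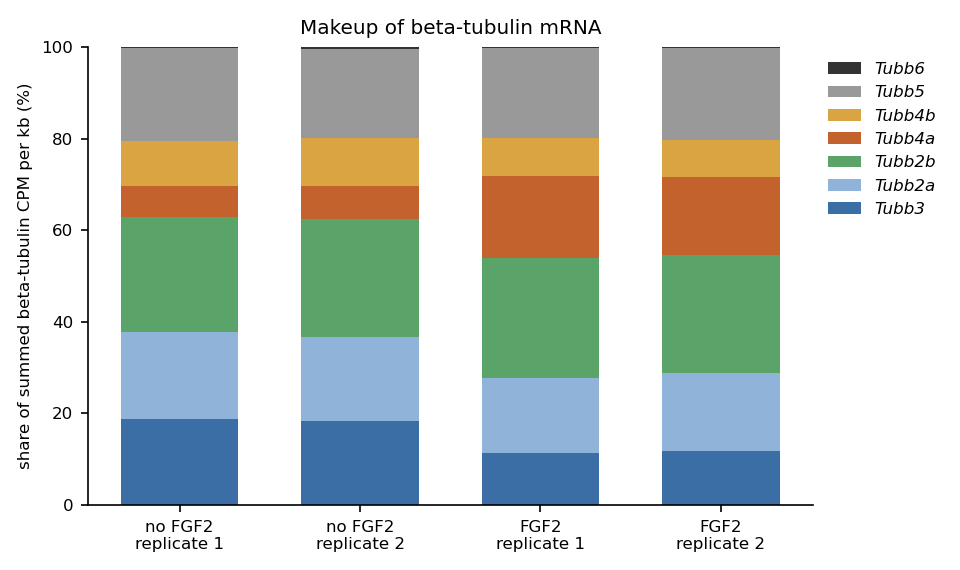
Share of each beta-tubulin gene in the summed beta-tubulin CPM per kb (vertical axis, percent) in each of the 4 libraries. The Tubb3 segment is smaller with FGF2 (11.4% and 11.7%) than without (18.7% and 18.3%), and the Tubb4a segment is larger (17.8% and 17.1% against 6.70% and 7.35%).

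Of the neurofilament partners, alpha-internexin (Ina) was at 111 and 107 CPM with FGF2 against 165 and 161 without (log2 -0.58, SE 0.059, edgeR adjusted p = 1.2e-21). It thus fell while Nefl rose. Peripherin (Prph), typical of peripheral neurons, was at 0.203 to 1.2 CPM and was not tested.

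Other microtubule-associated proteins were split, with 9 of 20 called lower, 3 higher and a median of -0.09. Camsap3, which binds microtubule minus ends, fell by 0.62 on the log2 scale and Mtus2 by 0.59, whereas Camsap2 (0.46), a relative of Camsap3, and Map6d1 (0.51) rose. Proteins of the stathmin and CRMP families, which bind tubulin dimers in growth cones, were lower for 7 of 8 (median -0.56), led by Crmp1 (-0.81) and Dpysl5 (-0.77). Enzymes that modify or sever microtubules were lower for 8 of 15 and higher for 1 (median -0.17): Kif2a (-0.56) and Vash2 (-0.50) fell, and the katanin subunit Katna1 (0.54) rose.

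Kinases and phosphatase subunits that act on tau and neurofilaments were lower for 11 of 12 (median -0.33). Cdk5r1, the p35 activator of Cdk5, was at -0.84 and Ppp2r2c at -0.71. Axonal motors were lower for 9 of 14 and higher for 2 (median -0.35), with Klc2 (-0.50) and Kif3b (-0.49) down and Kif5b (0.12) and Kif1b (0.08) up by small amounts. In the spectrin and ankyrin scaffold under the axon membrane, 7 of 8 were lower (median -0.37), including Sptbn4 (-0.98) and Add2 (-0.63). The exception was Nfasc, whose isoforms are made by neurons and by oligodendrocytes, at 1059 and 1033 CPM with FGF2 against 518 and 525 without (log2 1.00, edgeR adjusted p = 1.1e-177). Under pan-neuronal scaling these lists shifted upward, to 17 higher and 0 lower among the other microtubule-associated proteins and to 9 of 14 higher and 0 lower among the motors, where 65.4% of all tested genes were higher and 2.71% lower.

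**Figure D5:**
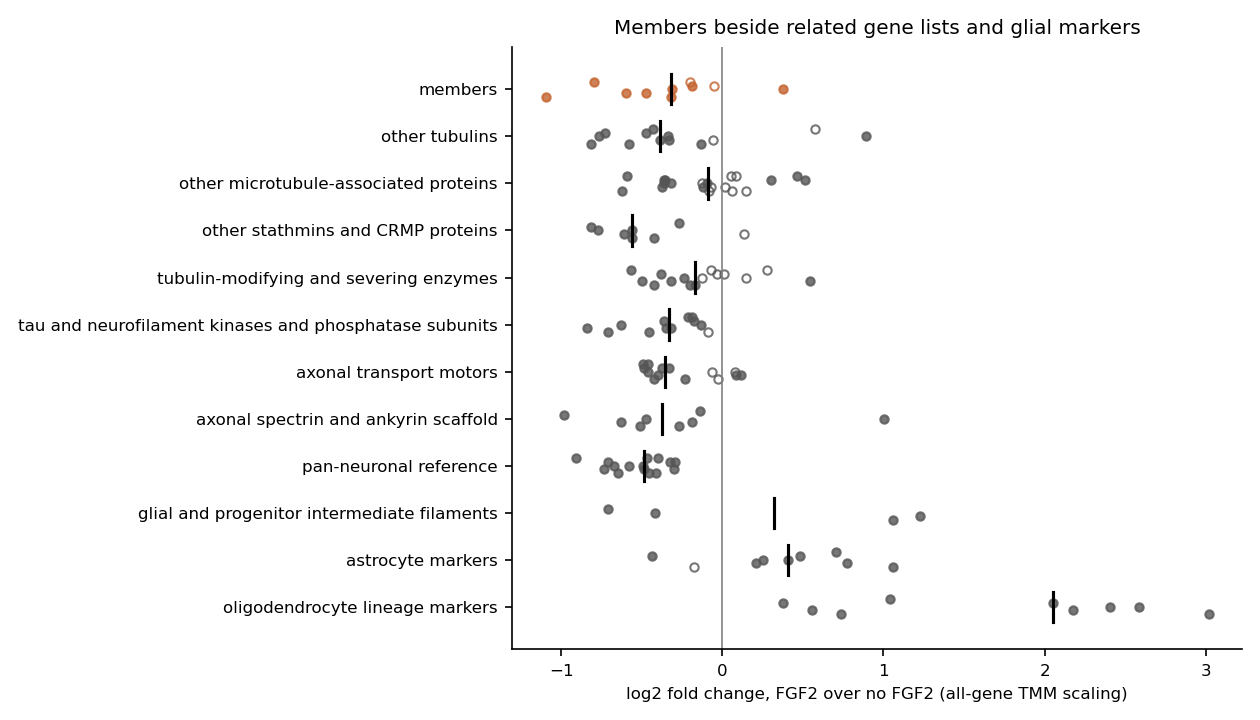
Log2 fold change, FGF2 over no FGF2, of the 10 members (orange) and of the tested genes in related lists and glial marker lists (grey), under all-gene TMM scaling; filled points passed the edgeR test and the black bar is the median of the list. The medians of the members and of the first 7 lists below them, all cytoskeletal, lie left of 0, between -0.56 and -0.09, while astrocyte and oligodendrocyte lineage markers lie to the right with medians of 0.40 and 2.05; under pan-neuronal scaling all points move right by about 0.53.

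Markers of other cells moved with the same contrast. Oligodendrocyte lineage markers were higher for 9 of 9 tested (median 2.05), with a summed level of 1864 and 1873 CPM with FGF2 and 560 and 569 without. Mag, a myelin protein, rose by 2.58 on the log2 scale. Astrocyte markers were higher for 7 of 9 and lower for 1 (Fgfr3, -0.44), and summed to 12505 and 12393 CPM against 7613 and 7562. Among intermediate filaments outside neurons, Vim (1.23) and Gfap (1.06) rose while Synm (-0.71) and Nes (-0.42) fell. The part of these cells in the changes of the members was not tested.

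Neuronal markers went down. The 15 pan-neuronal genes summed to 2817 and 2807 CPM with FGF2 and 4072 and 4133 without, with Rbfox3 (-0.90) and Celf4 (-0.74) falling most. All 10 inhibitory neuron markers were lower (median -0.69, Sst at -1.57 and Lhx6 at -1.51), summing to 687 and 694 CPM against 1149 and 1187. Cortical and excitatory markers were lower for 4 of 9 (median -0.34, Tbr1 and Neurod2 at -1.07 each), with sums of 344 and 349 CPM against 466 and 470. The pan-neuronal genes ranged from -0.90 to -0.30. Tubb3 (-1.10) lay below this range and Map1b (-0.19) above it, as did Nefl and the imprecise values of Nefm and Nefh, whereas Dcx, Mapt, Stmn2, Map2 and Map1a lay inside it.

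Further marker lists covered less abundant cells and cell states. Microglia markers summed to 16.4 and 19.4 CPM with FGF2 and 8.09 and 8.87 without, with 3 of the 4 tested higher. Fibroblast, mural and endothelial markers summed to 50.2 to 63.3 CPM, with 2 of 7 higher, including Pdgfrb (0.73), 3 lower, and Cldn5 at 0 in all libraries. Neural progenitor markers were higher for 3 of 8, with Pax6 at 0.43, and lower for 2, with Nes at -0.42 and Sox1 at -0.37. Proliferation markers were lower for 5 of 6 (Aurkb -1.28, Bub1 -0.84), and peripheral sensory and motor neuron markers summed to at most 9.80 CPM with none of the 2 tested called and Mnx1 at 0. Their part in the values of the members was not tested.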

How the data were processed

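RNA of unsorted P0 mouse PFC cultures was sequenced in 4 libraries. The authors aligned reads to mm10 with HISAT2 2.1.0, kept alignments with a mapping quality of at least 20 using Samtools, and obtained a count for each gene from HTSeq 0.11.2 (tools per the submitters' processing notes and the methods), and the deposited values are raw counts. The annotation release and the strand setting are not given in the sources used here. The mapping quality filter removes reads shared by near-identical genes, which lowers the counts of such genes. The 5 tallies that name no gene were left out of totals and tests: reads in no feature were 43.2% to 45.9% of all tallied, and ambiguous reads 1.47% to 1.76%. Gene identifiers were matched to GENCODE M21 for 55240 of 55421 genes.

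Counts were tested with the edgeR 4.0.16 quasi-likelihood test in R 4.3.3 (TMM, expression filter by group, robust fit, Benjamini-Hochberg adjustment over 17144 genes). Alternatives were RLE and total scaling, scaling to a pan-neuronal list, no filter, DESeq2 1.42.0, voom of limma 3.58.1, an exonic length offset, the replicate number as a block, each library left out, a threshold of 0.01, and, for ratios and levels, another prior count and the longest transcript. The fit was tested on simulated data. Named are all members, all other tubulins and neurofilament partners and, from each other list, the 2 called genes that rose most and the 2 that fell most at a mean of at least 5 CPM; Bcl11b, Emx1, Cldn5 and Mnx1 are named for cell identity, and a few genes picked by this rule are not reported here. Members and lists were chosen with earlier results of these data known. Shared stretches between transcripts were found with BLAST 2.17.0. Promoter sequences are from RefSeq (GRCm38.p6).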

Additional observations from a re-analysis of the deposited data

How the results depend on the processing

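Scaling to the pan-neuronal list changed most: 11211 genes were then called higher and 465 lower, with 4 members higher and 2 lower. Under it the sign turned for Map2 (0.21), Map1a (0.21), Map1b (0.34), Stmn2 (0.056), Nefm (0.48), Nefh (0.32), Tuba1a (0.39), Tuba1b (0.20), Tuba1c (0.19), Tuba4a (0.052), Tubb2b (0.14), Tubb5 (0.098), Tubg1 (0.47), Vash2 (0.030), Klc2 (0.031), Kif3b (0.040), Nes (0.11), Fgfr3 (0.088) and Sox1 (0.16). This follows from the construction of that scaling, which sets a list that fell to no change. DESeq2 called 2068 genes higher and 1939 lower in place of 3541 and 3408, and 0 members higher; the cause was not tested. Without replicate 2 of the no FGF2 group edgeR called 0 members higher. In both, 1 member, Nefl, was higher at an unadjusted p below 0.05. As each library was left out, Nefm ranged from -0.36 to 0.21, Nefh from -0.45 to 0.015 and Tubg1 from -0.13 to 0.013, each with a change of sign; the other 8 members kept theirs. With the replicate number as a block, Nefl was at 0.38 and Map1b at -0.19. Then 7 members were lower and 1 higher, so no call of a member changed. Same-numbered libraries did not deviate together (r = 0.00404 across 12651 genes). With 2 libraries in a group this cannot show whether they share a culture or a batch. Depth limits Nefm and Nefh, which had 22 to 59 counts in a library.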
